A study of Caenorhabditis elegans with 22 samples.

Results

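The first hour that Caenorhabditis elegans spent in a salt buffer without food was examined by comparing 3 libraries collected after 1 h in S-basal with 0% ethanol against 4 libraries collected at time zero. These 7 libraries, out of 22 in the series, were chosen by the time and ethanol concentration in their labels, and every gene that passed a filter on low counts entered the comparison, which left 15310 of 42048 genes. All were polyA libraries from whole worms of the N2 laboratory strain, grown in synchrony after bleaching on plates of Escherichia coli OP50 held at 20 °C, with about 1500 worms per sample. No worm in either group had met ethanol. The remaining groups of the series were 0% controls at 4 and 20 h and 5% ethanol at 1, 4 and 20 h. The 1 h group differed from time zero in several ways at once: the worms had been washed off their bacteria, had moved from agar into liquid of a defined salt content and were 1 h older. These differences cannot be told apart here, and the labels do not say whether time zero worms were washed.

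C. elegans lives on bacteria, which its intestine digests and stores largely as fat. When food is withdrawn, fat is known to be released by lysosomal lipases and burnt by fatty acid oxidation in mitochondria and peroxisomes, under the control of nuclear hormone receptors such as NHR-49 and of the opposing transcription factors HLH-30 and MXL-3. The glyoxylate cycle lets worms make sugar from fat, and autophagy returns the contents of cells to use.

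Library totals ran from 11640152 to 14535332 counts at time zero and from 11304630 to 13824932 counts at 1 h. Libraries of the same group varied along 1 main axis, which held 41.4% of the variance within groups over the whole series. Of the 7 libraries compared here, 2 stood far out on the same side of it, replicate 1 at time zero (score 38.3) and replicate 2 at 1 h (35.4). Replicate 1 at 1 h (-41.6) stood far out on the other. Counts are therefore also given without the first 2 where that changed them by more than 1.5 times. Deviations from the group mean also sloped with log2 exon length, by 0.145, 0.149 and -0.166 in the order given. In other groups, replicate 1 of the control at 20 h (58.3) and replicate 2 in ethanol at 1 h (46.8) stood farther out on the first side. The protocols place the worms in the L3 larval stage and the title in L4. Both stages precede adulthood, yet adult-stage transcripts were abundant: col-19, a collagen of the adult cuticle, stood at 2063 ± 301 CPM (counts scaled by the TMM-adjusted library size to a common total; mean ± SD, n = 4) at time zero and 1810 ± 285 CPM (n = 3) at 1 h. The 6 yolk protein genes together held 47060 to 72250 CPM at time zero and 34740 to 103200 CPM at 1 h. The 24 oocyte and eggshell genes held 5552 to 13200 CPM and 6493 to 16600 CPM, and the 7 germline markers 1414 to 2965 CPM and 1414 to 3505 CPM. In each of these sums the 2 groups overlapped, and the 2 outlying libraries were the highest of their groups. In whole worms, fewer cells of a type and less RNA per cell cannot be told apart.

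After 1 h in buffer, 1657 genes differed from time zero (10.8% of those tested; edgeR's quasi-likelihood test, Benjamini-Hochberg adjusted p under 0.05), 816 of them higher (5.33%) and 841 lower (5.49%). A change of at least 2-fold was seen in 468 of the higher and 507 of the lower genes. The 3 libraries at 1 h lay wholly above or below the 4 at time zero for 1596 of the 1657. Over all genes tested, 10.3% had all 1 h libraries above time zero and 11.5% had all below. The median log2 fold change was 0.0581 over all genes, 1.11 over the genes called higher and -1.13 over those called lower. With the 2 outlying libraries left out, 538 genes were higher and 569 lower. The balance of directions moved with the scaling: 719 were higher and 938 lower with RLE factors, 654 and 982 with upper-quartile factors, 624 and 794 with library sizes alone, and 787 and 1046 in DESeq2.

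**Figure D1:**
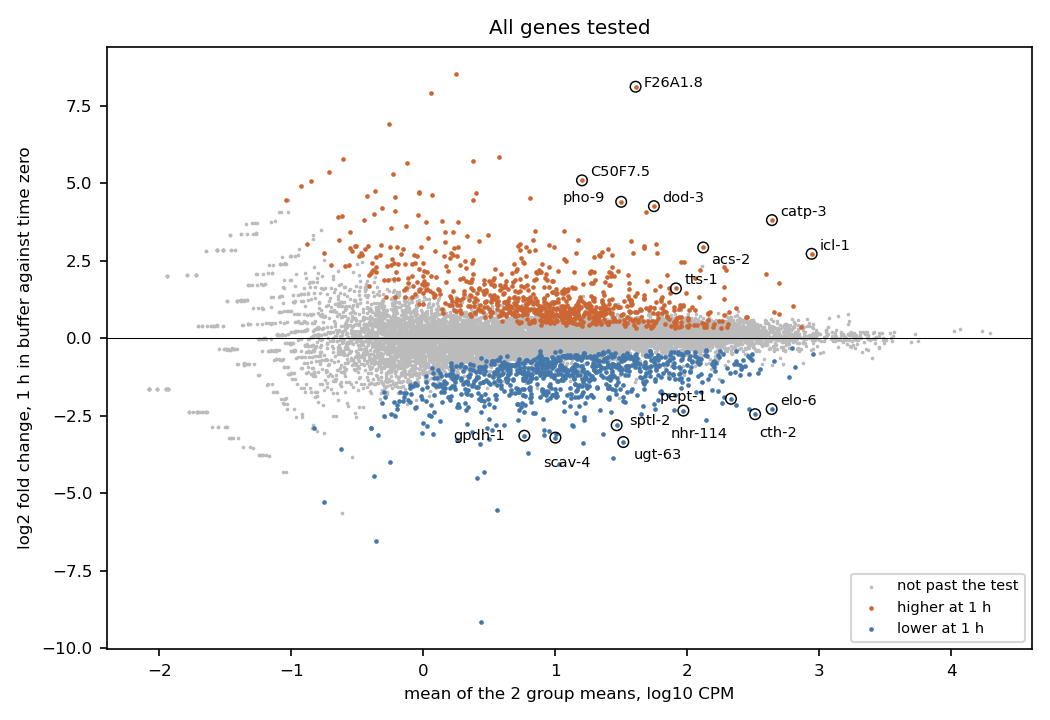
Each point is 1 of the genes tested, with the mean of both groups on the horizontal axis (log10 CPM) and the log2 fold change of 1 h in buffer over time zero on the vertical axis. Orange and blue points are the 816 higher and 841 lower genes, circles mark named genes, and called genes in both directions are found at low as well as at high levels of expression.

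The rises with the largest fold, among genes with at least 5 CPM in the higher group and at least 10 counts in each group, were led by genes of little-known function. F26A1.8 stood at 0.0931, 0.336, 0.360 and 0.309 CPM in the 4 time zero libraries and at 109, 57.2 and 76.7 CPM in the 3 at 1 h. It went from near the detection limit to a well-expressed transcript in every library, a log2 fold change of 8.12 ± 0.30 (SE; adjusted p = 5.89e-13). C50F7.5 rose by 5.10 ± 0.38 and F15E6.3 by 4.09 ± 0.20 on the log2 scale. pho-9, which encodes an acid phosphatase-like protein, was at 3.35, 2.55, 3.42 and 2.09 CPM at time zero and at 58.9, 62.8 and 59.2 CPM at 1 h. The 1 h libraries agreed closely and lay far above time zero (log2 fold change 4.41 ± 0.25, adjusted p = 2.14e-10). dod-3, a gene known as a target of the insulin-regulated transcription factor DAF-16, rose from 5.51 ± 0.81 to 106 ± 4.5 CPM (log2 fold change 4.27 ± 0.24).

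catp-3, which encodes a P-type ATPase related to the sodium and potassium pump, combined a high level with a large change. Its values were 57.2, 55.9, 58.0 and 60.7 CPM at time zero and 833, 776 and 841 CPM at 1 h. The spread within each group was small beside the 14.1-fold difference (log2 fold change 3.82 ± 0.29, adjusted p = 1.15e-08). The other genes among the 12 leading rises were ugt-52, a glucuronosyltransferase gene (4.54 ± 0.36), hil-3, a linker histone gene (3.17 ± 0.24), irg-2, known from the response to infection (3.19 ± 0.23), and F56C3.9, C06B3.7 and T27D12.6, with log2 fold changes of 3.47, 3.45 and 3.33. his-24, another linker histone gene, went from 6.02 ± 0.96 to 37.9 ± 8.5 CPM (log2 fold change 2.65 ± 0.25).

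The 12 leading falls were also mostly little-studied genes. F22F7.8 was at 20.5, 21.8, 18.5 and 20.4 CPM at time zero and at 1.16, 0.679 and 1.74 CPM at 1 h, a log2 fold change of -4.06 ± 0.34 (adjusted p = 4.69e-08). F19B2.5, C52D10.1 and ZK1290.5 followed, with -3.86 ± 0.67, -3.69 ± 0.38 and -3.38 ± 0.34. All libraries at 1 h lay below all at time zero in each of the 12. Among those with a known product were the glucuronosyltransferase genes ugt-63 (-3.35 ± 0.32) and ugt-16 (-3.13 ± 0.42) and gpdh-1, the glycerol-3-phosphate dehydrogenase of osmolyte synthesis (-3.15 ± 0.32). scav-4, a relative of the CD36 scavenger receptor that takes up lipids in mammals, went from 18.1 ± 3.2 to 1.96 ± 0.34 CPM (-3.21 ± 0.25). W07A12.8, R07E5.4, F49E12.9 and H43E16.1 completed the 12, with log2 fold changes from -3.26 to -2.99.

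A further 91 called genes had fewer than 10 counts in 1 of the groups, 63 of them higher and 28 lower. cpt-3, a carnitine palmitoyltransferase gene of fat oxidation, had 4 counts over the 4 time zero libraries and 164 over the 3 at 1 h. Relative to TMM-adjusted library size this was 60.2 times as many (exact 95% interval 23.1 to 224, counting error alone). nspe-1, of a nematode-specific peptide family, had 271 counts at time zero and 0 at 1 h and was thus at least 61.5-fold lower, taking 3 counts over the group as the floor.

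Several genes that carry fatty acids into breakdown rose, with a few enzymes moving the other way. Of 35 genes of fatty acid breakdown, 7 rose (20.0%, against 5.33% of all genes) and 3 fell (8.57%, against 5.49%), and their median log2 fold change was -0.0716. acs-2, the mitochondrial acyl-CoA synthetase known as a fasting gene under NHR-49, was at 35.3, 31.6, 26.9 and 28.4 CPM at time zero and at 172, 287 and 241 CPM at 1 h. Every 1 h library lay far above time zero (7.64-fold, log2 fold change 2.93 ± 0.36, adjusted p = 9.72e-06), with replicate 1 the lowest of the 3. cpt-4, of the carnitine palmitoyltransferases that bring fatty acids into mitochondria, was at 7.07, 5.24, 5.31 and 7.12 CPM and then at 19.1, 17.1 and 18.2 CPM. The groups did not overlap (log2 fold change 1.55 ± 0.31, adjusted p = 0.0017). acdh-7 and acdh-10, acyl-CoA dehydrogenase genes of the first oxidation step, rose by 1.02 ± 0.24 and 0.80 ± 0.19. ech-7, an enoyl-CoA hydratase family gene, fell from 134 ± 17 to 44.5 ± 8.4 CPM (log2 fold change -1.59 ± 0.24), and acdh-2 fell by 0.89 ± 0.23, a call lost in some of the fits that left out 1 library (adjusted p up to 0.098). With the 2 outlying libraries left out, 5 of the 35 were higher and 1 lower. nhr-49 itself stood at 118 ± 9 CPM and 134.9 ± 7.1 CPM (adjusted p = 0.279).

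Among the 21 acyl-CoA synthetase genes, which activate fatty acids for any use, 5 rose (23.8%, against 5.33% of all genes) and 2 fell (9.52%, against 5.49%). acs-7, known for activating side chains of the ascaroside pheromones, was at 7.17, 12.5, 10.5 and 11.5 CPM at time zero and at 47.1, 41.4 and 39.2 CPM at 1 h (log2 fold change 2.02 ± 0.16, adjusted p = 2.01e-08). acs-17 and acs-22 rose by 1.02 ± 0.15 and 0.92 ± 0.11. acs-1, which supplies the branched-chain fatty acid pathway, fell from 312 ± 38 to 148 ± 27 CPM (log2 fold change -1.07 ± 0.16), and acs-14 from 103 ± 5.5 to 42.3 ± 3.4 CPM (-1.28 ± 0.12). Of 11 peroxin genes, which build peroxisomes, 3 were higher (27.3%) and 0 lower. The 3 were prx-11 (1.24 ± 0.19), prx-2 (1.15 ± 0.23) and prx-13 (0.57 ± 0.13). That list was written after the values were seen, and the prx-13 call was lost without the 2 outlying libraries (adjusted p = 0.0651).

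Of 25 lipase genes, 4 rose (16%, against 5.33% of all genes) and 0 fell, with a median of -0.0181. lipl-4, a lysosomal lipase known to be induced by fasting, was low throughout, at 0.279, 0.201, 0.0900 and 0.0774 CPM and then at 1.23, 1.02 and 1.45 CPM. The groups were apart (log2 fold change 2.87 ± 0.49, adjusted p = 0.000365), on 8 counts at time zero and 42 at 1 h. Relative to TMM-adjusted library size this was 7.71 times as many (exact 95% interval 3.58 to 19.03, counting error alone). lipl-2, of the same family, was at 1.95, 4.10, 2.97 and 3.87 CPM at time zero and at 11.3, 5.99 and 7.16 CPM at 1 h (1.34 ± 0.24). lipl-6 rose by 1.87 ± 0.46 and lips-16 by 1.32 ± 0.34, and these were the 2 lipase calls lost without the outlying libraries (adjusted p = 0.103 and 0.101). lipl-3 and fil-1, both known from fasted worms, had log2 fold changes of 0.95 ± 0.48 (adjusted p = 0.272) and -0.38 ± 0.35 (adjusted p = 0.654).

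The glyoxylate cycle gene icl-1, whose product joins isocitrate lyase and malate synthase in 1 protein, was at 291, 213, 218 and 196 CPM at time zero and at 1054, 2010.0 and 1494 CPM at 1 h. Every 1 h library lay far above time zero (log2 fold change 2.73 ± 0.22, adjusted p = 3.84e-08). pyc-1, the pyruvate carboxylase that feeds gluconeogenesis, was at 594, 313, 424 and 338 CPM and at 535, 1152 and 866 CPM. Its groups overlapped, since replicate 1 at time zero exceeded replicate 1 at 1 h, and its call (log2 fold change 1.03 ± 0.30, adjusted p = 0.0322) was lost without the 2 outlying libraries (adjusted p = 0.0615), in the fits without replicate 2, 3 or 4 at time zero or replicate 2 or 3 at 1 h (up to 0.162), without a count filter (0.065) and with only these 7 libraries (0.0627). tps-2, a trehalose-6-phosphate synthase, rose from 91.5 ± 13.7 to 289 ± 73 CPM (1.66 ± 0.21). None of the 16 glycolysis genes, 20 genes of the tricarboxylic acid cycle or 31 genes of the respiratory chain passed the test, and their median log2 fold changes were 0.0343, 0.148 and 0.0232. At an unadjusted p under 0.05 edgeR's test held 1, 0 and 0 of them, and DESeq2 and limma-voom called 0.

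Among 22 genes of fatty acid synthesis and desaturation, 7 fell (31.8%, against 5.49% of all genes), 0 rose, and the median was -0.284. The largest falls were in elongases. elo-5, which makes branched-chain fatty acids that worms need to grow, was at 385, 583, 473 and 512 CPM at time zero and at 125, 80.5 and 97.3 CPM at 1 h. The 1 h libraries were all below time zero (log2 fold change -2.27 ± 0.27, adjusted p = 4.66e-06). elo-6, which acts beside elo-5, was at 548, 866, 774 and 701 CPM and then at 170.2, 121 and 153 CPM (-2.28 ± 0.22, adjusted p = 3.47e-07). elo-2, which elongates palmitic acid, was at 369, 401, 381 and 374 CPM and then at 87.9, 82.5 and 85.1 CPM. Both of its groups were tight and well apart (-2.16 ± 0.15, adjusted p = 3.01e-09). elo-9 fell by 1.79 ± 0.20 and elo-3 by 0.56 ± 0.10. The Δ9 desaturase fat-6 fell from 832 ± 95 to 353 ± 78 CPM (-1.24 ± 0.34, adjusted p = 0.0211), a call lost without the 2 outlying libraries (adjusted p = 0.104) and when replicate 2 at time zero or replicate 2 or 3 at 1 h was left out (up to 0.116). Its close relatives fat-5 and fat-7 had log2 fold changes of -0.56 ± 0.23 and -0.27 ± 0.33 and did not pass (adjusted p = 0.137 and 0.693).

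**Figure D2:**
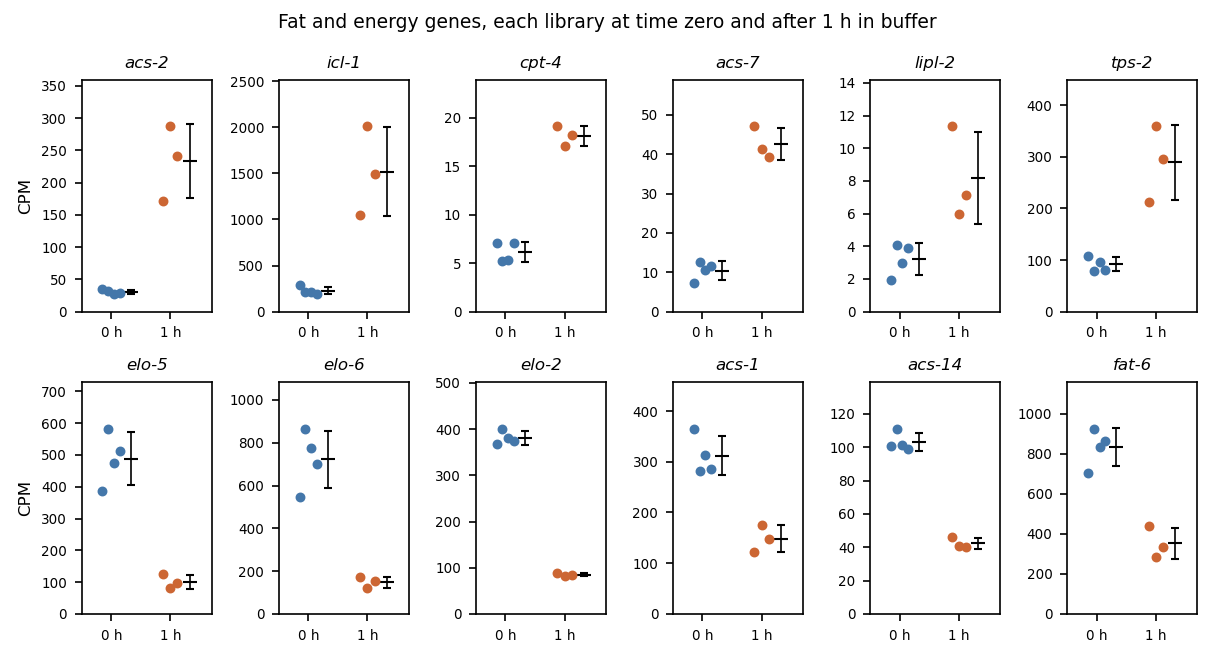
Each panel shows 1 gene of fat or sugar metabolism in CPM on an axis from 0, with 4 time zero libraries in blue, 3 libraries after 1 h in buffer in orange, and bars for mean ± SD. The 6 genes of the upper row lie higher at 1 h and the 6 of the lower row lower, with no overlap between the groups in any panel.

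Several genes that build membrane lipids fell. Of 15 genes of phospholipid head group synthesis, a list written after the values were seen, 5 fell (33.3%, against 5.49% of all genes) and 0 rose. cept-1, a choline and ethanolamine phosphotransferase, was at 90.1, 103, 94.9 and 95.2 CPM at time zero and at 25.7, 21.5 and 25.1 CPM at 1 h. The groups were far apart (log2 fold change -1.99 ± 0.15, adjusted p = 1.15e-08). pcyt-1, the CTP-using enzyme that limits phosphatidylcholine synthesis, fell from 98.9 ± 12.8 to 28.9 ± 6.9 CPM (-1.77 ± 0.25), pssy-1, a phosphatidylserine synthase, by 1.37 ± 0.13 and the choline kinase gene ckc-1 by 1.03 ± 0.17. sptl-2, a subunit of the serine palmitoyltransferase that starts sphingolipid synthesis, was at 44.1, 56.5, 50.9 and 52.8 CPM and then at 9.43, 5.77 and 6.49 CPM (log2 fold change -2.81 ± 0.20, adjusted p = 8.74e-09). sptl-3, of the same enzyme, fell by 1.30 ± 0.14, while sms-3, of the sphingomyelin synthases, rose by 0.68 ± 0.14. These were the only calls among 22 sphingolipid genes, a list also written after the values were seen. They made 9.09% lower and 4.55% higher, against 5.49% and 5.33% of all genes, and the median was -0.176.

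Genes for taking up nutrients were more often lower than higher. Of 22 nutrient transporter genes, 5 were lower (22.7%, against 5.49% of all genes) and 2 higher (9.09%, against 5.33%), with a median of -0.309. pept-1, the intestinal carrier of short peptides from digested food, was at 327, 360.0, 335 and 339 CPM at time zero and at 86.9, 87.2 and 89.5 CPM at 1 h. The 1 h libraries agreed within a few CPM and were 3.87-fold below time zero (log2 fold change -1.95 ± 0.17, adjusted p = 8.49e-08). The amino acid transporter genes aat-4 and aat-6 fell by 1.32 ± 0.22 and 1.31 ± 0.36, and swt-3, a sugar transporter of the SWEET family, rose by 1.45 ± 0.27. With the 2 outlying libraries left out, 3 transporters were lower and 1 higher, and the aat-6 call was lost (adjusted p = 0.0708).

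Of 24 genes of amino acid breakdown, a list written after the values were seen, 11 fell (45.8%) and 2 rose (8.33%). Over all genes 5.49% fell and 5.33% rose, and the median of the list was -0.558. The 11 included enzymes of several amino acids. gcsh-1, of the glycine cleavage system, was at 62.0, 94.0, 71.0 and 76.0 CPM at time zero and at 18.6, 11.8 and 11.6 CPM at 1 h (log2 fold change -2.43 ± 0.23, adjusted p = 2.15e-07). pah-1, which turns phenylalanine into tyrosine, was at 175, 203, 194 and 203 CPM and then at 62.9, 51.5 and 60.9 CPM (-1.73 ± 0.14). In both genes every 1 h library lay below every time zero library. Along the tyrosine route, tatn-1 and hpd-1 fell by 1.39 ± 0.28 and 1.13 ± 0.16, and fah-1, at its end, by 0.57 ± 0.11. In the kynurenine route of tryptophan, tdo-2, kmo-1 and flu-2 fell by 1.04 ± 0.17, 1.56 ± 0.31 and 1.07 ± 0.24. The branched-chain aminotransferase bcat-1 and the histidine ammonia-lyase haly-1 fell by 1.40 ± 0.23 and 1.14 ± 0.12. The 2 that rose, ddo-2 (1.00 ± 0.15) and daao-1 (1.21 ± 0.25), encode oxidases of D-amino acids, and the daao-1 call was lost without the 2 outlying libraries (adjusted p = 0.0514), which left 1 higher.

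Of 19 genes of the methionine cycle and propionate breakdown, 4 were lower (21.1%, against 5.49% of all genes) and 0 higher. cth-2, a cystathionine gamma-lyase, was at 469, 606, 557 and 574 CPM at time zero and at 111, 91.8 and 99.4 CPM at 1 h, 5.47-fold lower (log2 fold change -2.45 ± 0.19, adjusted p = 2.35e-08). cbs-1, a cystathionine beta-synthase and the preceding step, fell by 1.497 ± 0.23. sams-1, which makes S-adenosylmethionine, and pmt-2, a methyltransferase of phosphocholine synthesis, fell by 1.15 ± 0.34 and 0.50 ± 0.15 with adjusted p = 0.0317 and 0.0323, and both calls were lost when replicate 3 at time zero or replicate 1 or 3 at 1 h was left out (adjusted p up to 0.130 and 0.156). nhr-114, a nuclear hormone receptor known to fit metabolism to the bacterial diet, was at 187, 139, 160 and 137 CPM and then at 22.4, 39.7 and 30.7 CPM. It had the largest fall of the 195 receptor genes tested (-2.34 ± 0.28, adjusted p = 5.57e-06). idh-1, a cytosolic isocitrate dehydrogenase, stood at 853, 875, 849 and 851 CPM and then at 449, 447 and 444 CPM (-0.94 ± 0.13). gln-3, a glutamine synthetase, rose from 363 ± 41 to 624 ± 83 CPM (0.78 ± 0.18).

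Calls among genes of autophagy were mostly upward. Of 32 tested, 10 were higher (31.2%, against 5.33% of all genes) and 2 lower (6.25%, against 5.49%), and the median log2 fold change was 0.477. A positive value was held by 30 of the 32, but also by 30 of 32 proteasome genes and 22 of 22 DNA replication genes, lists with 0 calls. lgg-2, one of the worm's Atg8 proteins that coat autophagosomes, was at 63.9, 51.9, 54.8 and 57.7 CPM at time zero and at 106, 129 and 124 CPM at 1 h. The groups were well apart (log2 fold change 1.07 ± 0.11, adjusted p = 8.16e-07). lgg-1, the other Atg8 gene, rose by 0.85 ± 0.18, the cargo receptor gene sqst-1 by 0.99 ± 0.18, epg-9, of the initiating kinase complex, by 1.18 ± 0.12 and atg-18 by 0.57 ± 0.09. With the 2 outlying libraries left out, 7 were higher.

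The regulators of lysosomal genes differed from each other. mxl-3, a repressor of lysosomal lipase genes in fed worms, was at 114.2, 119.9, 109.5 and 118.5 CPM at time zero and at 46.6, 47.4 and 46.4 CPM at 1 h. It was 2.47-fold lower with hardly any spread at 1 h (log2 fold change -1.30 ± 0.16, adjusted p = 5.72e-06). hlh-30, the worm's TFEB and the opposing activator, was at 56.8, 33.4, 41.9 and 34.5 CPM and at 55.3, 110.5 and 78.7 CPM. Its groups overlapped by replicate 1 of each, and it did not pass the test (0.97 ± 0.32, adjusted p = 0.0629). It passed when either replicate 1 at time zero or replicate 1 at 1 h was left out (adjusted p = 0.0305 and 0.0346) and in DESeq2 (0.0364). Over all 7 fits that left out 1 library, the adjusted p reached 0.285 and the log2 fold change ran from 0.68 to 1.18. With a length slope per library as covariate it also passed (4.15e-05), but that covariate came from the same data and removes spread within groups by construction. sqst-2 fell by 1.21 ± 0.22. Of 19 genes of the vacuolar ATPase, which acidifies lysosomes, 1 was called lower (5.26%, against 5.49% of all genes) and 0 higher. The called gene was vha-5 (-0.70 ± 0.15), and the median was -0.117.

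**Figure D3:**
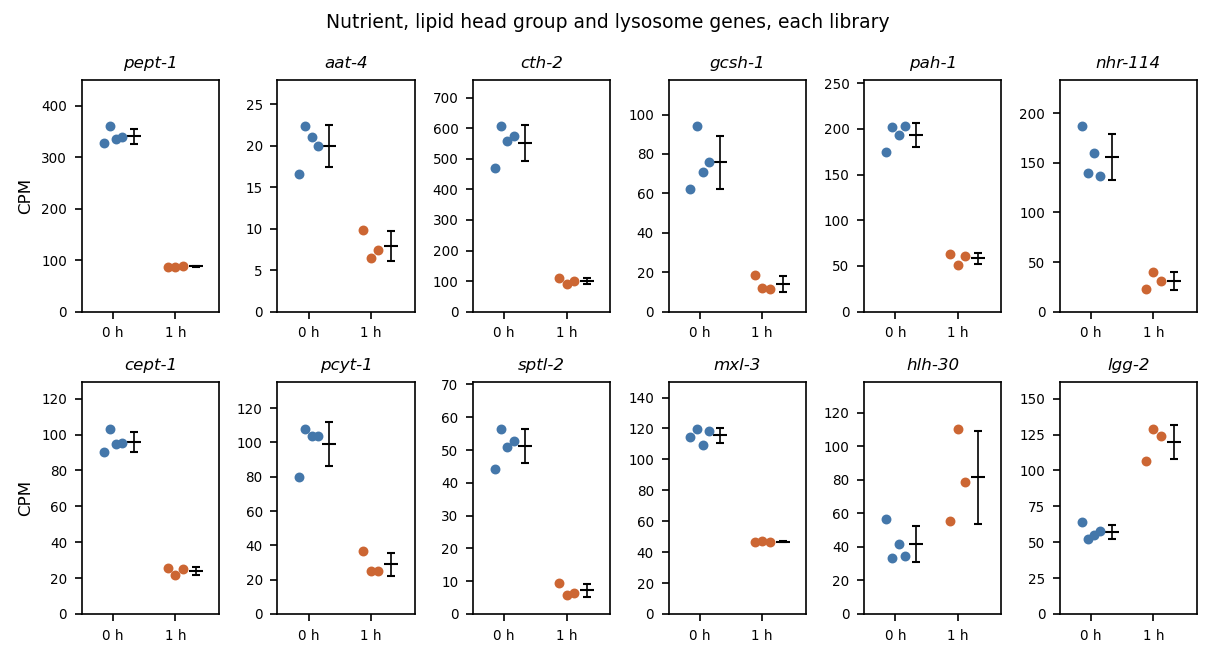
Each panel shows 1 gene of nutrient use, membrane lipid synthesis or autophagy in CPM on an axis from 0, with 4 time zero libraries in blue, 3 libraries after 1 h in buffer in orange, and bars for mean ± SD. The 10 genes from pept-1 to mxl-3 lie lower at 1 h and lgg-2 lies higher, each without overlap, while the groups of hlh-30 overlap.

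Genes reported as targets of DAF-16, the transcription factor held back by insulin signalling, rose in 8 of 20 cases and fell in 1. These were 40.0% and 5.00%, against 5.33% and 5.49% of all genes, and the median was 0.537. Beside dod-3 and icl-1, ftn-1, a ferritin that stores iron, went from 3.80 ± 0.82 to 17.05 ± 0.99 CPM (log2 fold change 2.16 ± 0.39) and nnt-1, a mitochondrial transhydrogenase, from 1.504 ± 0.337 to 6.30 ± 0.09 CPM (2.08 ± 0.18). tts-1, a long noncoding RNA that binds ribosomes in long-lived mutants, was at 35.7, 41.7, 43.4 and 41.01 CPM and then at 131, 109 and 131 CPM (1.61 ± 0.18, adjusted p = 2.79e-06). The catalase genes ctl-2 and ctl-1, close copies of each other, rose by 0.86 ± 0.15 and 1.08 ± 0.27, and the ctl-1 call was lost without replicate 2 at 1 h (adjusted p = 0.0633). sod-3, a mitochondrial superoxide dismutase often used as a DAF-16 reporter, moved the other way, from 4.29 ± 0.52 to 2.59 ± 0.40 CPM (-0.73 ± 0.21, adjusted p = 0.0237), a call that was lost when replicate 2 or 4 at time zero or replicate 2 or 3 at 1 h was left out (adjusted p up to 0.139). daf-16 was at 102 ± 41 and 104 ± 49 CPM (adjusted p = 0.965), and its log2 fold change of 0.04 ± 0.35 took a negative sign under each of 3 other scalings. Among insulin-like peptide genes, daf-28 fell by 1.81 ± 0.47 and ins-7 rose by 1.33 ± 0.31; the daf-28 call was lost without replicate 1 at 1 h (adjusted p = 0.095).

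Calls among stress genes of other kinds differed by list, beside 5.33% higher and 5.49% lower over all genes. In the endoplasmic reticulum's unfolded protein response, 0 of 22 genes rose and 1 fell (4.55%). None of 8 genes of mitochondrial stress passed edgeR's test, also at an unadjusted p under 0.05, or was called by DESeq2 or limma-voom. hsp-4, the BiP reporter of the first, was at 342 ± 84 and 401 ± 120 CPM (adjusted p = 0.575), and hsp-6, the reporter of the second, at 517 ± 227 and 535 ± 256 CPM (adjusted p = 0.961), where the sign of the change depended on the scaling. Of 15 cytosolic heat shock genes 2 rose (13.3%), hsp-12.6 (1.39 ± 0.39) and hsp-12.3 (1.13 ± 0.32), and 0 fell. Both calls were lost when replicate 1 or 3 at time zero or replicate 1 at 1 h was left out (adjusted p up to 0.153 and 0.154). Both were also lost in limma-voom (0.131 and 0.06). The hsp-12.6 call was further lost without replicate 4 at time zero (0.0641) or replicate 3 at 1 h (0.0674), and with the replicate block over all libraries (0.0873). Without the 2 outlying libraries hsp-12.6 alone was called. hsp-70 was at 9.68, 7.92, 9.18 and 9.05 CPM and at 4.37, 4.18 and 4.36 CPM. It did not pass with the spread shared by all groups (-1.05 ± 0.90, adjusted p = 0.565) but did when only these 7 libraries were fitted (adjusted p = 0.0019). Of 26 oxidative stress genes, 3 rose (11.5%) and 2 fell (7.69%), and 2 rose and 1 fell without the 2 outlying libraries. Of 14 metal response genes, 1 rose (7.14%) and 3 fell (21.4%), and 1 rose and 1 fell without those libraries. Of 12 hypoxia and sulfide genes, 2 fell (16.7%) and 0 rose. gst-4, the oxidative stress reporter, and nlp-29, of the epidermal antimicrobial peptides, had log2 fold changes of -0.35 ± 0.22 and 0.25 ± 0.30 (adjusted p = 0.394 and 0.692). aak-2, a catalytic subunit of the energy sensor AMPK, was at 35.5 ± 9.3 and 46.86 ± 16.15 CPM (adjusted p = 0.365), and of the regulatory gamma subunits aakg-4 rose by 0.95 ± 0.15 and aakg-3 fell by 2.01 ± 0.35.

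In a list of 21 genes of salt and water balance, 6 were lower (28.6%, against 5.49% of all genes) and 0 higher, with a median of -0.0685. catp-3, related to the sodium and potassium pump, rose and was not in this list. nhx-1, a sodium-proton exchanger, was at 13.4, 18.5, 15.1 and 16.6 CPM at time zero and at 4.51, 4.07 and 4.16 CPM at 1 h (log2 fold change -1.90 ± 0.24, adjusted p = 1.12e-05). nhx-2, the intestinal exchanger that works with pept-1, fell by 0.70 ± 0.18, a call lost without replicate 2 at 1 h (adjusted p = 0.0953), and the aquaporin genes aqp-8, aqp-11 and aqp-4 by 0.92, 0.82 and 0.69. gpdh-1 was at 9.87, 9.94, 11.5 and 10.5 CPM and then at 0.957, 1.58 and 1.06 CPM, and hmit-1.1, a myo-inositol transporter also known from high salt, at 9.96, 9.67, 9.90 and 9.36 CPM and then at 1.98, 1.58 and 1.94 CPM (-2.39 ± 0.33, adjusted p = 3.48e-05). Both were thus low in every 1 h library. They were counted among 15 genes of glycogen, trehalose and glycerol, of which 3 rose (20.0%, against 5.33% of all genes) and 3 fell (20.0%, against 5.49%). gpdh-2, the other glycerol-3-phosphate dehydrogenase of osmolyte synthesis, rose by 0.57 ± 0.10. rhy-1, a regulator in the hypoxia pathway, fell from 40.4 ± 5.4 to 13.1 ± 1.8 CPM (-1.63 ± 0.22).

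Families of detoxification genes held calls in both directions, beside 5.33% higher and 5.49% lower over all genes. Of 65 cytochrome P450 genes, 16 rose (24.6%) and 8 fell (12.3%), with a median of 0.219. cyp-34A2 was at 1.68, 1.68, 2.16 and 2.32 CPM at time zero and at 13.7, 16.9 and 17.4 CPM at 1 h (log2 fold change 3.02 ± 0.21, adjusted p = 5.38e-09). cyp-13A4, cyp-13A5 and cyp-25A3 rose by 3.76 ± 0.47, 2.93 ± 0.17 and 2.76 ± 0.16, while cyp-25A2 and cyp-25A1, from the same subfamily as the last, fell by 1.802 ± 0.22 and 1.59 ± 0.21. Without the 2 outlying libraries 10 were higher and 4 lower. cyp-35A1 was called in none of the 7 fits that left out 1 library (log2 fold change -3.53 to -1.10, adjusted p 0.313 to 0.783). Of 62 UDP-glucuronosyltransferase genes, 12 rose (19.4%) and 16 fell (25.8%), from ugt-52 at the top and ugt-51 (2.699 ± 0.15) to ugt-63 at the bottom. Of 43 glutathione S-transferase genes, 2 rose (4.65%) and 8 fell (18.6%), with a median of -0.456, and 5 fell without those 2 libraries. Of the 5 flavin-containing monooxygenase genes, fmo-1 went from 10.6 ± 2.2 to 83.1 ± 19.8 CPM (2.97 ± 0.26), fmo-5 rose by 2.29 ± 0.19 and fmo-3 fell by 1.86 ± 0.33. sodh-1, an alcohol dehydrogenase, was at 41.2, 34.6, 34.99 and 40.5 CPM and then at 67.2, 78.5 and 78.2 CPM (0.98 ± 0.17, adjusted p = 0.000436). Genes of these families lie in clusters of similar copies, and how reads that fit several copies were counted is not given in the sources used here.

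The nuclear hormone receptors, a family of regulators that is very large in worms, rose in 38 of 195 cases and fell in 16. These were 19.5% and 8.21%, against 5.33% and 5.49% of all genes, and the median was 0.213. nhr-58 was at 2.33, 2.15, 3.60 and 2.71 CPM and then at 13.2, 12.4 and 11.3 CPM (log2 fold change 2.20 ± 0.19, adjusted p = 5.08e-08). nhr-156 rose by 2.15 ± 0.24, while nhr-31 fell from 67.6 ± 7.0 to 25.5 ± 2.0 CPM (-1.41 ± 0.15). Without the 2 outlying libraries 25 receptors were higher and 11 lower. Among bZIP factors, zip-2, known from the response to infection, went from 110.5 ± 17.9 to 266 ± 61 CPM (1.27 ± 0.22), jun-1 rose by 1.00 ± 0.16 and zip-3 fell by 0.96 ± 0.17. These were the only calls among 27 bZIP genes (7.41% higher and 3.70% lower, against 5.33% and 5.49% of all genes).

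Calls among genes for secreted proteins with roles in defence differed by list, beside 5.33% higher and 5.49% lower over all genes. Of 14 thaumatin and scl genes, 6 rose (42.9%) and 0 fell. scl-2 was at 10.8, 14.5, 12.8 and 11.99 CPM and then at 95.4, 101 and 112 CPM (log2 fold change 3.03 ± 0.25, adjusted p = 4.09e-08), and thn-2 at 10.4, 11.4, 10.7 and 11.8 CPM and then at 72.6, 92.2 and 86.0 CPM (2.91 ± 0.33). Every 1 h library was far above time zero in both. Of 46 genes for epidermal antimicrobial peptides, 12 rose (26.1%) and 2 fell (4.35%), among them nlp-33 (1.24 ± 0.20), cnc-4 (2.23 ± 0.42) and fipr-22 (2.57 ± 0.29), the last with a near-identical neighbour, and 8 rose and 0 fell without the 2 outlying libraries. Of 133 C-type lectin genes, 6 rose (4.51%) and 14 fell (10.5%), led downward by clec-265 (-2.95 ± 0.66), and 3 rose and 9 fell without the 2 outlying libraries.

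Cuticle collagen genes were more often lower than higher, and several housekeeping lists held no call. Of 137 cuticle collagen genes, 17 fell (12.4%, against 5.49% of all genes) and 2 rose (1.46%, against 5.33%), with a median of -0.448. The summed level of the family was 51810 to 64480 CPM at time zero and 44000 to 53010 CPM at 1 h. col-149, at 350.3 ± 58.1 and then 154 ± 24 CPM, fell by 1.19 ± 0.21, and col-135 rose by 1.47 ± 0.23. The number of lower collagens was 11 without the 2 outlying libraries and 31 when only the 7 libraries were fitted. None of 79 ribosomal protein genes, 32 proteasome genes, 31 tRNA synthetase genes or 65 sperm genes passed the test, and their medians were 0.0521, 0.126, -0.0147 and -0.0347. Of these, 3 sperm genes had an unadjusted p under 0.05 in edgeR's test, and DESeq2 and limma-voom called 0. Of the oocyte and eggshell genes only cpg-8 rose (0.65 ± 0.17), a call lost without either of the 2 replicates numbered 1 (adjusted p = 0.102 and 0.0852) and without the 2 outlying libraries (0.0956), and the median of the list was 0.381. The median of 22 DNA replication genes was 0.307 and that of the germline markers 0.385, with 0 calls in either by edgeR, DESeq2 or limma-voom and 1 and 0 genes at an unadjusted p under 0.05. For vit-2, a yolk gene, replicate 2 at 1 h reached 29289 CPM and the other 2 libraries 9932 and 16107 CPM, against 12949 to 19649 CPM at time zero (adjusted p = 0.733). Without that library the sign of its change turned negative.

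**Figure D4:**
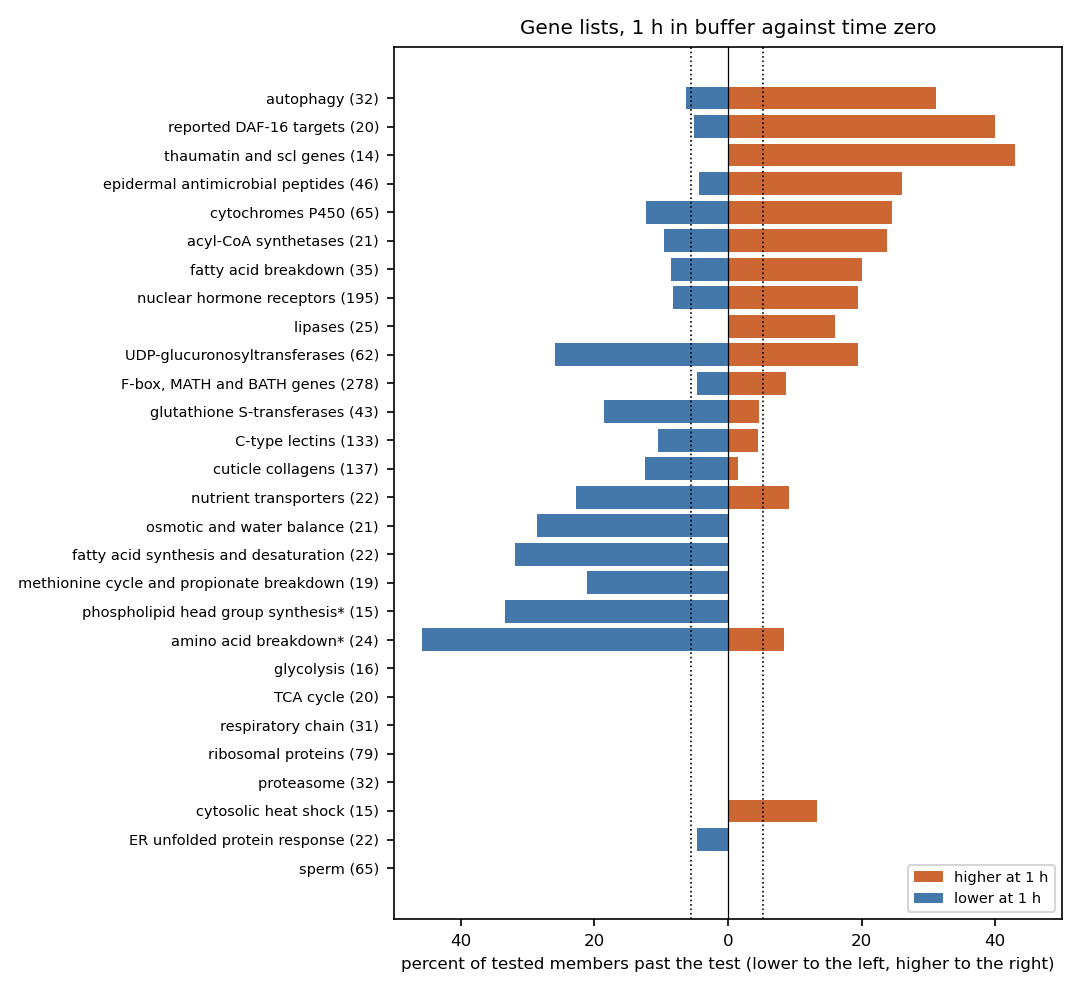
Bars give, for 28 of the 70 lists, the percent of tested members (number in brackets) that were lower, to the left, or higher, to the right, after 1 h in buffer, and dotted lines mark 5.49% and 5.33%, the shares over all genes. Lists marked * were written after the values were seen; among the lists drawn, amino acid breakdown (45.8% lower) and thaumatin and scl genes (42.9% higher) reach farthest to either side.

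The levels at 1 h were not always the end of the change. In the 0% controls kept longer in buffer, acs-2 stood at 6.22 ± 1.42 CPM at 4 h and 173 ± 98 CPM at 20 h, after 233 ± 58 CPM at 1 h (n = 3 each), so its 4 h level was below that of time zero. icl-1 stayed high, at 1583 ± 113 CPM at 4 h and 681 ± 126 CPM at 20 h. tts-1 went on to 1419 ± 265 and 5659 ± 1473 CPM, sodh-1 from 74.6 ± 6.5 at 1 h to 543 ± 57 and 2812 ± 711 CPM, and scl-2 from 103 ± 8 to 838 ± 54 and 768 ± 345 CPM. At 1 h these 3 genes were thus still far below their later levels. cyp-34A2 reached 53.95 ± 1.47 CPM at 4 h and was back at 1.43 ± 0.68 CPM at 20 h. pept-1 was at 44.7 ± 2.3 and 52.1 ± 14.3 CPM, elo-5 at 19.6 ± 0.6 and 14.9 ± 5.1 CPM, and mxl-3 at 5.45 ± 0.33 and 36.2 ± 6.9 CPM. cth-2, by contrast, was higher later (234 ± 6 and 339 ± 108 CPM) than at 1 h (101 ± 10 CPM). These levels share the time zero libraries as their start and were not tested here.

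Beside the control at 1 h, the worms held for 1 h in 5% ethanol had other levels of several of these genes. mxl-3 stood at 109.7 ± 1.0 CPM in ethanol, close to its 116 ± 5 CPM at time zero, and scl-2 at 14.5 ± 1.9 CPM, close to 12.5 ± 1.6 CPM. sodh-1 was at 36.98 ± 3.31 CPM and cyp-34A2 at 1.27 ± 0.17 CPM, both near time zero as well. F26A1.8 reached 21.05 ± 1.47 CPM, catp-3 424 ± 16 CPM and acs-2 75.5 ± 12.8 CPM, between time zero and the control. tts-1, at 104 ± 14 CPM, and lgg-2, at 110.4 ± 15.7 CPM, were near the control. pho-9, at 135.4 ± 18.1 CPM, was above the control, and gpdh-1, at 25.2 ± 3.0 CPM, above both.

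**Figure D5:**
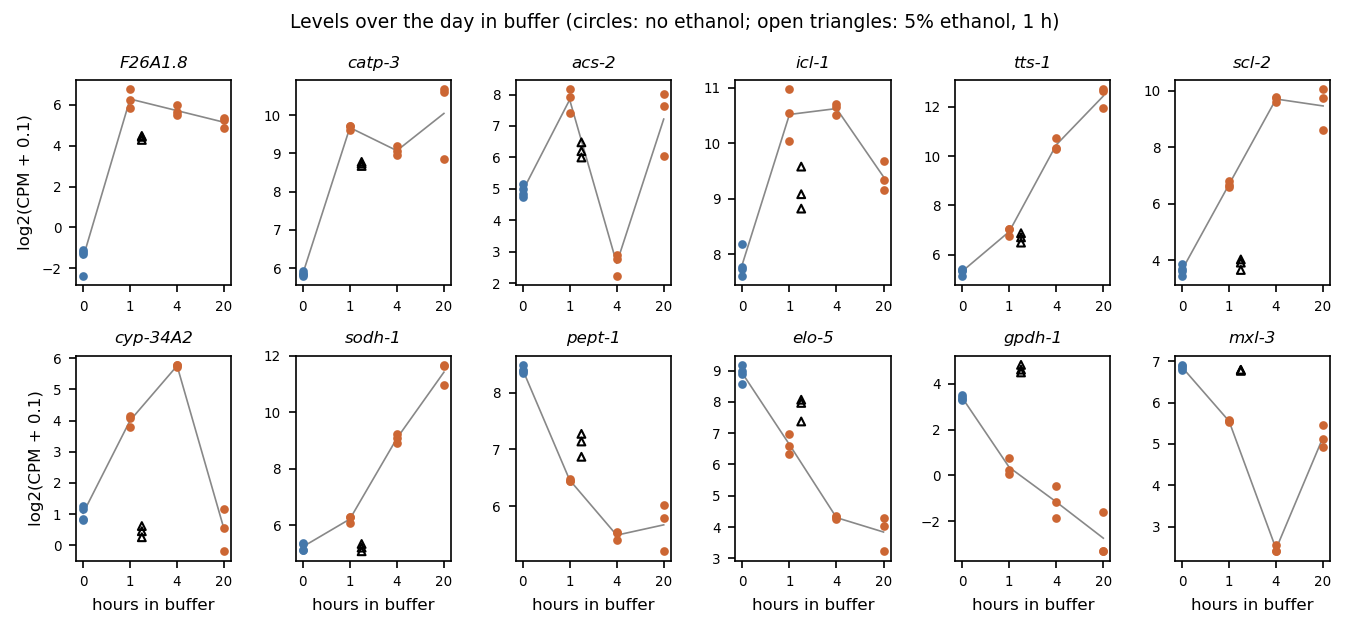
Circles give log2(CPM + 0.1) of 12 genes in each library at time zero (blue) and after 1, 4 and 20 h in buffer (orange), evenly spaced, the line joins group means of these values, and open triangles are the 3 libraries after 1 h in 5% ethanol. tts-1 and sodh-1 are highest at 20 h, acs-2 is high at 1 h and lowest at 4 h, and mxl-3 and scl-2 in ethanol lie at the level of time zero.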

How the data were processed

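The authors deposited whole-number read counts per gene in 1 table for 22 polyA libraries. The submitters' processing notes name Subread 2.0.3 with featureCounts, STAR 2.7.9a, Trimmomatic 0.39, fastp 0.23.2 and build ce10. Which annotation and strand setting applied, and how reads fitting several genes were treated, is not given in the sources used here, so near-identical, overlapping and antisense genes are uncertain. Groups came from the labels, which name biological replicates without saying that cultures were separate. A p-value therefore reflects variation among these libraries, which may be technical. Libraries of a group differed with a chi-square of 5.74 to 117 per degree of freedom, so each library counted as 1 replicate.

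Genes passed edgeR's filterByExpr over 7 groups (at least 10 counts in a group-sized set and 15 in total), and 99.9% of counts remained. All 22 libraries entered a single edgeR 4.0.16 fit in R 4.3.3, with a mean for each group, TMM factors and robust quasi-likelihood dispersions. Tests were two-sided with Benjamini-Hochberg adjustment over all 15310 genes, and every adjusted p is from this test unless another is named. SE is the log2 fold change divided by the square root of F. The counts' depth and the spread between libraries both limit precision, and intervals on counts cover counting error only. Genes to name were drawn from the 12 largest rises and falls (all libraries apart, at least 5 CPM in the higher group, at least 10 counts per group), up to 4 called members per list, the 4 most abundant called genes per direction, and 28 fixed genes. Called genes under 10 counts in a group were counted, with at most 2 named beside lipl-4, which was among the fixed genes. A further 30 list members were named after their values were seen. The members and lists were chosen with earlier results of these data known, and 10 lists were written after the values were seen. Alternatives used DESeq2 1.42.0, limma-voom (limma 3.58.1), other scalings, filters and libraries, a replicate block, a minimum fold change and a length covariate.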

Additional observations from a re-analysis of the deposited data

Results flagged for a closer look

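In 12 of the 237 genes picked by the naming rule or named here, 1 time zero library lay far from the other 3 by Dixon's test, where chance flags about 1 group in 20. Replicate 1 was the odd library in 6 of them. It was high for sqst-1, a cargo receptor of autophagy (42.8 CPM, the others 28.7 to 29.8), and for the catalase ctl-2 (58.6 CPM, the others 44.5 to 46.0). It was low for pcyt-1 (79.96 CPM, the others 103 to 108), pssy-1 (65.9 CPM, the others 72.0 to 72.5), the kinase gene akt-1 (161 CPM, the others 179.9 to 183) and cpg-8 (54.1 CPM, the others 67.7 to 69.1). Replicate 2 was high for acs-14 (111 CPM, the others 99.3 to 101), the translation initiation factor ife-2 (48.8 CPM, the others 42.0 to 42.7), the histone his-38 (11.2 CPM, the others 6.98 to 7.43) and idh-1 (875 CPM, the others 849 to 853). Replicate 3 was low for F56C3.9 (0.720 CPM, the others 1.24 to 1.34), and replicate 4 was high for nhr-156 (3.79 CPM, the others 2.34 to 2.55). In all 12 genes the 3 libraries at 1 h still lay wholly above or below the 4 at time zero.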

How the results depend on the processing

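Of 153 called genes named here, 128 kept their call in all 18 alternatives other than a minimum log2 fold change and the replicate block with only these 7 libraries. The count of called genes, 1657, was 1228 to 1577 with 1 library left out (635 to 760 higher, 593 to 866 lower), 1833 with DESeq2, 1665 with limma-voom and 1619 (669 higher, 950 lower) with only these libraries. Whether replicate numbers pair the samples is not known. Deviations of same-numbered libraries had correlations of -0.653, -0.521 and 0.056. These cannot decide it, because 1 main axis held 41.4% of the variance within groups. The replicate block gave 1252 calls over all libraries and 323 (156 higher, 167 lower) with only these 7. Testing against a log2 fold change of 1 left 296 (168 and 128). Without the 2 outlying libraries 538 were higher, and 1079 of all main calls (65.1%) were shared. A length slope per library as covariate gave 4463 (2767 and 1696), 62.0% of them higher against 49.2%. It was taken from the same data and removes spread within groups by construction. For 4 genes without a call the sign turned. daf-16 gave -0.011, -0.064 and -0.058 with RLE, upper-quartile and no factors, -0.0018 without a count filter, -0.00033 with only these 7 libraries, -0.086 and -0.103 with the block, -0.040 without the 2 libraries, -0.0070 with the covariate, -0.0106 with DESeq2, -0.029 with limma-voom and -0.31 to 0.37 with 1 library left out. hsp-6 gave -0.0030, -0.055 and -0.049 with those factors, -0.103 and -0.096 with the block, -0.025 without the 2 libraries, -0.0029 with DESeq2 and -0.32 to 0.37 with 1 left out. Without the 2 libraries hsp-16.2 gave 0.21 and vit-2 -0.19, and with 1 left out they ranged from -0.48 to 0.18 and from -0.28 to 0.53. The cause was not tested. Depth limits the 91 calls with under 10 counts in a group.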

Other observations

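Other families held calls in both directions. Of 53 transthyretin-related genes, a family of secreted proteins that is large in nematodes, 12 rose (22.6%, against 5.33% of all genes) and 1 fell (8 and 0 without the 2 outlying libraries), led by ttr-37, at 3.66 ± 0.65 CPM at time zero (SD, n = 4) and 20.6 ± 4.8 CPM at 1 h (n = 3; log2 fold change 2.50 ± 0.25), and ttr-23 (2.22 ± 0.20). Of 278 F-box, MATH and BATH genes, which mark proteins for degradation, 24 rose (8.63%) and 13 fell (4.68%, against 5.49% of all genes), and without the 2 outlying libraries 15 rose and 9 fell. fbxa-105 rose by 2.17 ± 0.26 and math-14 fell by 3.29 ± 0.37. Of the 6 CD36-like scavenger receptors, 4 fell (66.7%) and 1 rose, and 3 fell and 0 rose without the 2 outlying libraries. scav-5 fell beside scav-4, from 3.38 ± 1.00 to 0.785 ± 0.204 CPM (-2.08 ± 0.43), scav-6 fell by 0.91 ± 0.22 and scav-1 by 0.63 ± 0.17, and scav-3 rose by 0.40 ± 0.10. The scav-1 and scav-3 calls were lost without those libraries (adjusted p = 0.0884 and 0.151), and that of scav-6 without replicate 2 at 1 h (0.0785). The transthyretin and scavenger receptor lists were written after the values were seen.

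The heme transporter genes hrg-4 and hrg-1 moved apart. hrg-4, which imports heme into the intestine, fell from 6.98 ± 1.29 to 1.98 ± 0.64 CPM (log2 fold change -1.82 ± 0.35), and hrg-1, which releases heme from lysosomes, rose by 1.24 ± 0.21 (edgeR's quasi-likelihood test, Benjamini-Hochberg adjusted p = 0.00113 and 0.000294). wht-1, an ABC transporter gene, rose from 1.52 ± 0.56 to 11.03 ± 0.63 CPM (2.82 ± 0.21), and the peroxisomal transporter gene pmp-4 rose by 1.06 ± 0.23. Of 47 ABC transporter genes in all, 7 fell (14.9%, against 5.49% of all genes) and 4 rose (8.51%, against 5.33%). Without the 2 outlying libraries, 5 fell and 2 rose.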
